A study of Mus musculus with 4 samples.

Results

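B cells carried over into a sort of spleen CD4+ T cells were described here. They were found among the RNA barcodes of the spleen as those with at least 500 genes, at least 1000 unique molecular identifiers (UMIs, counts of single captured transcripts), at most 10% mitochondrial UMIs, at least 2 UMIs of Cd79a and at least 1 UMI of Ms4a1. Cd79a encodes a signalling chain of the B cell receptor and Ms4a1 the B cell surface protein CD20. The rule was met by 152 of 8474 spleen barcodes that passed the filters (1.79%, exact binomial 95% interval 1.52 to 2.10), out of 12617 filtered barcodes in the series. Of the 152, 139 had no UMI of Cd3e, a T cell receptor subunit gene, and no productive T cell receptor beta chain (TRB), and these are called B cells below. A further 10 had Cd3e UMIs and a productive TRB and are called T-B barcodes. There were 2 barcodes with 1 Cd3e UMI and no TRB, and 1 barcode with a TRB and no Cd3e.

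The study set conventional CD4+ T cells of the spleen beside those of the brain in the chronic phase of experimental autoimmune encephalomyelitis (EAE), a mouse model in which an immune response against myelin inflames brain and spinal cord. The mice were wild-type C57BL/6, all had the disease, and tissue was taken on day 60 after immunization. The sort took CD4+ CD44+ GITR- cells, with 38000 spleen and 18718 brain cells put on the droplet instrument for RNA and T cell receptor libraries, and the submitters give the cell type as CD4 T cells. Each tissue gave 1 RNA and 1 receptor library and how many animals were pooled for it was not stated, so there was no replicate and no test, and every interval covers counting error only.

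B cells display a membrane antibody with a signalling dimer encoded by Cd79a and Cd79b, take up antigen through it, and present peptides on MHC class II to CD4+ T cells. In the spleen, resting follicular B cells carry IgM with IgD and the low-affinity IgE receptor CD23 (Fcer2a). Marginal zone B cells have high CD21 (Cr2) and little CD23, and germinal centre B cells divide and diversify their antibody. Plasma cells secrete antibody, which in some antibody classes is joined by the J chain (Jchain). CD4+ T cells and B cells meet in the same organ and can form contacts while help is given.

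The members were chosen by Cd79a, Ms4a1, Cd3e and TRB, so these values are a description. B cells held 2 to 60 Cd79a UMIs (median 23) and 1 to 48 Ms4a1 UMIs (median 6). Of the 152, 149 had 5 or more Cd79a UMIs and 3 had 2 to 4. Just outside the rule, 4 barcodes had 1 Cd79a UMI with Ms4a1, and all 4 had UMIs of Cd79b, Pax5 or Ebf1 (median 26 for the sum of these genes). Another 10 had at least 2 Cd79a UMIs and no Ms4a1. Of these, 7 carried Cd3e or a TRB. There were also 30 with 1 Cd79a UMI and no Ms4a1, of which 29 carried Cd3e or a TRB, and 6 with Ms4a1 and no Cd79a, of which 5 did. B lineage genes that the rule did not use were present too. Cd79b, the partner of Cd79a, had UMIs in 136 of 139 B cells (97.8%) and Ighm, the IgM heavy chain gene, in 135 (97.1%). The lineage factor gene Pax5 had UMIs in 132.

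**Figure D1:**
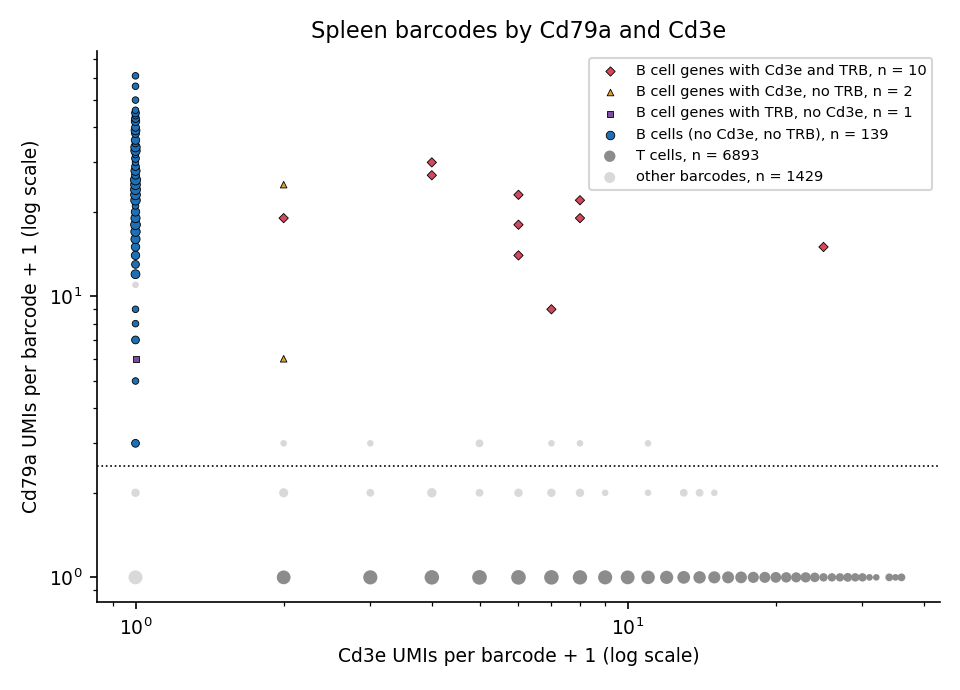
Cd79a UMIs against Cd3e UMIs in each spleen barcode, both plus 1 on log scales; larger points stand for more barcodes with the same values, and the dotted line marks the minimum of 2 Cd79a UMIs. The 139 B cells form a column without Cd3e, and the 10 T-B barcodes have 8 to 29 Cd79a UMIs beside 1 to 24 Cd3e UMIs.

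B cells were smaller in RNA content than the T cells they were sorted with. They held a median of 5435 UMIs (lowest 1260, highest 33537) and 2225 genes, with 2.33% mitochondrial UMIs. The 6893 T cells used for comparison, with Cd3e, exactly 1 productive TRB and no Cd79a or Ms4a1, held a median of 7449 UMIs and 2686 genes, with 2.30% mitochondrial UMIs. The ranges overlapped. No member shared its barcode sequence with a brain barcode, although 31 sequences occurred in both RNA libraries.

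With UMIs summed over cells and scaled to CPM (the usual counts-per-million scale of the group's total), 4131 genes reached 50 CPM in B cells or T cells. Of these, 532 (12.9%) were at least 2-fold higher in B cells and 493 (11.9%) at least 2-fold lower, and the median log2 ratio of all 4131 was -0.15. Because Cd79a, Ms4a1 and Cd3e chose the cells, these counts describe how far the cell types stand apart and test nothing. The shares of 12.9% and 11.9% are the background for the counts of list genes below.

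Genes of the B cell receptor and of antigen presentation led the difference. H2-Aa, which encodes an MHC class II alpha chain, stood at 5596 CPM in B cells and 0.673 CPM in T cells. That is a ratio of 8313 (95% interval 6022 to 11821). The class II beta chain genes H2-Eb1 and H2-Ab1 had ratios of 6663 (4658 to 9893) and 4658 (3385 to 6596). These sizes depend on the T cells chosen, which had to lack Cd79a and Ms4a1: against all other spleen barcodes the ratios were 619, 500.4 and 586. Rasgrp3, an exchange factor gene of B cell receptor signalling, had 170 UMIs in B cells and 0 in T cells, which makes it at least 3587-fold higher when 3 counts are allowed for the 0. Others in this group were Siglecg, an inhibitory receptor gene (410 and 0.0364 CPM), Fcrla (420 and 0.0546 CPM) and Ly6d (2166 and 0.418 CPM). Mef2c, a transcription factor gene (927 and 0.218 CPM), Spib, a B lineage transcription factor gene (246 and 0.0182 CPM), and Mzb1, which encodes a chaperone of antibody assembly (597 and 0.0728 CPM), were also among the 12 genes with the highest ratios. The highest ratio was that of Jchain (6264 and 0.327 CPM), and 3 cells gave nearly all of its UMIs, as described below.

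The 12 genes at the other end were T cell genes. B cells held 2 UMIs of Cd3g and 3 of Cd3d, T cell receptor subunit genes that stood at 870 and 868 CPM in T cells. Thy1 had 1 UMI in B cells and 631 CPM in T cells, and Lat, an adaptor gene of receptor signalling, had 4 UMIs and 814 CPM. Tcf7, a transcription factor gene of naive and memory T cells, had 2 UMIs in B cells and 723 CPM in T cells. Il7r, an interleukin receptor gene, had 4 UMIs against 684 CPM. Nkg7, a cytotoxic granule gene, and Izumo1r had 0 UMIs in B cells, against 228 and 313 CPM in T cells, and were at least 66.0-fold and 90.5-fold lower. The remaining genes were Cd4, Ccl5, S100a4 and Cd5, with 1 UMI each over the 139 B cells. Of the 20 T cell identity genes, 19 were lower in B cells, a count that includes Cd3e, which the rule used. Without it 18 of 19 were lower, with a median log2 ratio of -7.21, and Cd2, which B cells of mice also carry, was neither (234 and 434 CPM).

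**Figure D2:**
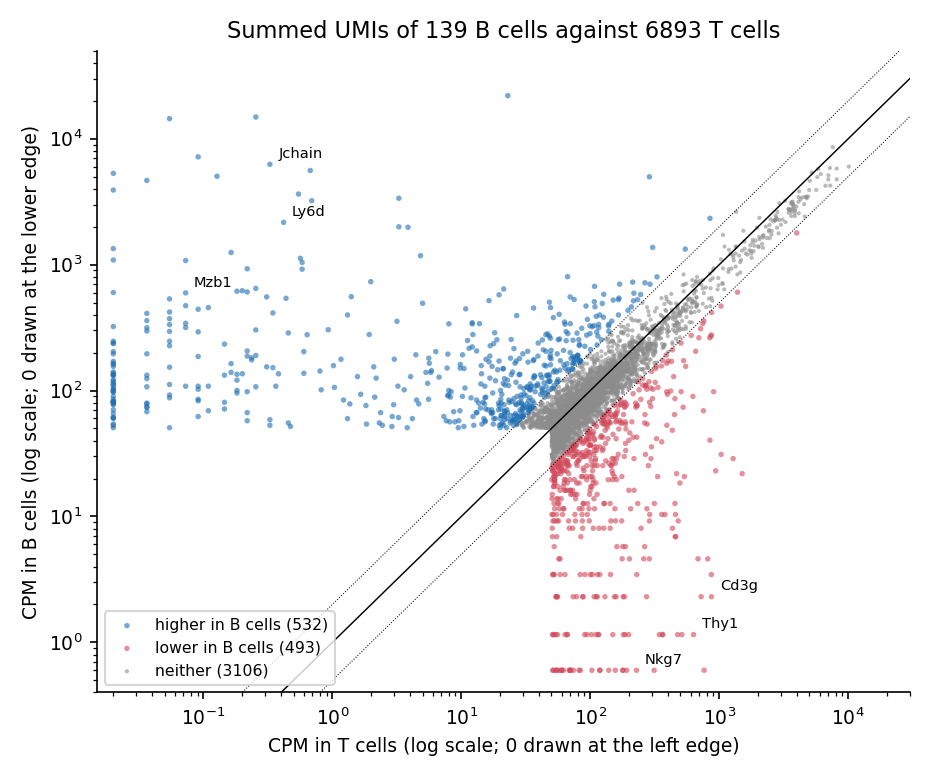
CPM of each gene in B cells (vertical axis) against T cells (horizontal axis), both on log scales, for the 4131 genes of at least 50 CPM in either; dotted lines mark a 2-fold difference. The 532 genes higher in B cells reach far to the left, where T cells held few or 0 UMIs, and the 493 lower genes lie below the line.

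The receptor and its signalling genes were measured throughout. Cd79a is in the list of 18 genes of the B cell receptor complex and its call was fixed by the rule. The other 17 were all higher in B cells, with a median log2 ratio of 9.0, against -0.15 over all genes. Cd79b stood at 1981 CPM in B cells and 3.86 CPM in T cells. Bank1, a scaffold of receptor signalling, stood at 1997 and 3.27 CPM. The adaptor Blnk and the kinases Syk and Btk, which carry the signal onward, stood at 615 and 0.182 CPM, at 607 and 0.218 CPM, and at 206 and 0.218 CPM. Cd22, which dampens the receptor, had a ratio of 98.5 (84.5 to 115). All 12 B lineage transcription factor genes were higher too (median log2 7.10). Ebf1 (1042 and 0.582 CPM) and Pax5 (540 and 0.437 CPM), which set up and hold B cell identity, were almost without UMIs in T cells. Foxp1 (1329 and 545 CPM) and Bach2 (717 and 265 CPM) were also present in T cells and had ratios of 2.44 and 2.70.

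All 13 genes of MHC class II presentation were higher in B cells (median log2 8.41), against 12.9% of all genes. Cd74, which encodes the invariant chain that guides class II molecules, had UMIs in every B cell, from 9 to 393 (median 135). It stood at 21996 CPM in B cells and 22.9 CPM in T cells. H2-DMb2, a peptide exchange chain, stood at 1123 and 0.564 CPM, and Ciita, the master regulator gene of class II, at 204 and 0.600 CPM. The protease gene Ctss, which trims the invariant chain, was shared more widely (700 and 169 CPM).

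The naive follicular pattern was the most common. Ighm and Ighd were found together in 125 of 139 B cells. Ighd, the IgD heavy chain gene, had UMIs in 91.4% (95% interval 85.4 to 95.5) of B cells and 1.32% of T cells. Fcer2a had UMIs in 74.1% (66.0 to 81.2) of B cells and 0.0870% of T cells, and Cr2 in 66.2% (57.7 to 74.0) and 0.160%. After each cell was thinned to 3000 UMIs, which left out 8 B cells and 94 T cells, the shares were 83.2% of B cells and 0.544% of T cells for Ighd, 62.6% and 0.0294% for Fcer2a, and 58.8% and 0.0882% for Cr2. Of the 11 follicular genes, 9 were higher in B cells, 0 lower and 2 neither, beside 12.9% higher and 11.9% lower over all genes. The homing receptor gene Ccr7 was among those that were neither (256 and 326 CPM). The survival receptor gene Tnfrsf13c, which encodes the receptor for BAFF, stood at 398 CPM in B cells and 1.31 CPM in T cells. The follicle homing receptor gene Cxcr5 stood at 196 CPM in B cells, 6.53 times the level in T cells.

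**Figure D3:**
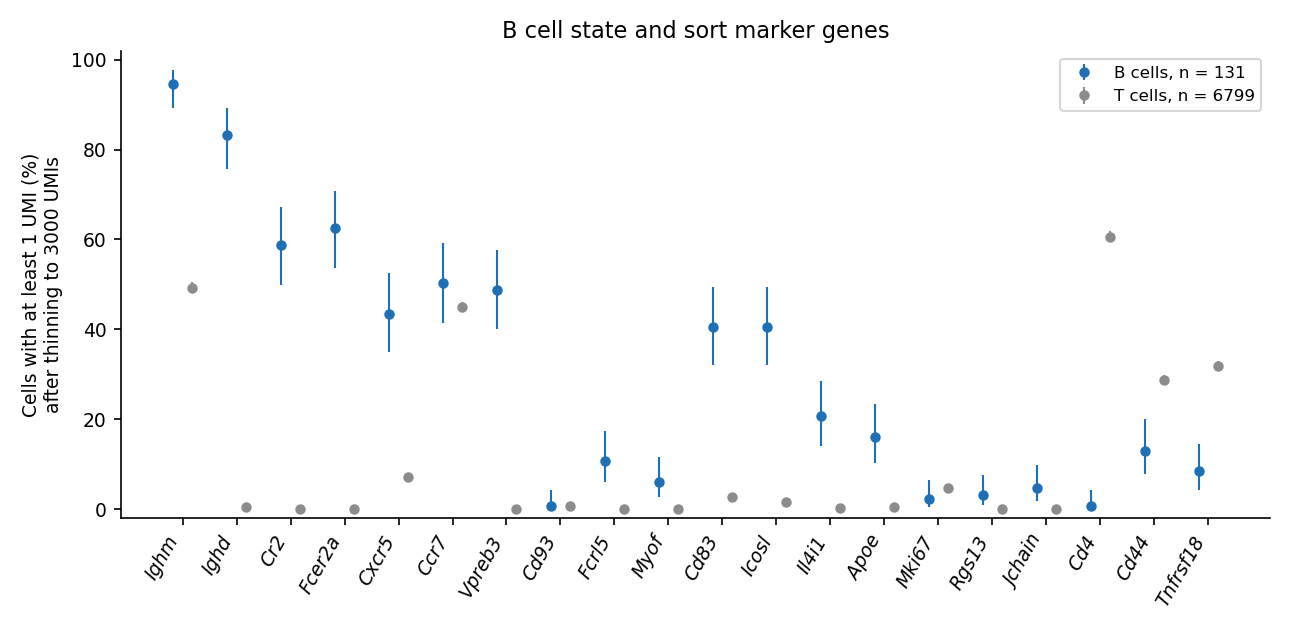
Percent of cells with at least 1 UMI of each gene after thinning to 3000 UMIs, in 131 B cells (blue, left of each pair) and 6799 T cells (grey), with exact 95% binomial intervals. Ighm, Ighd, Cr2 and Fcer2a are in most B cells, Rgs13 and Jchain in few, and Ighm is also in 49.3% of T cells.

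The share for Ighm in T cells was high. Ighm had UMIs in 69.3% of T cells as sequenced, with 2.29 UMIs per T cell. The other B cell genes were scarce there: Igkc had UMIs in 0.856% of T cells, Cd79b in 2.28% and Cd74 in 7.30%. For each UMI of Igkc, T cells held 87.7 UMIs of Ighm, and B cells 1.48. The proportion of Ighm to Igkc thus differed between the groups, its source was not tested, and the share of B cells with Ighm has to be read against 69.3%. The shares of Ighd, Fcer2a and Cr2 stood far above their level in T cells.

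Marginal zone genes were found in a minority of B cells. Of the 14 genes on that list, 10 reached 50 CPM. Among these, 7 were higher in B cells, 2 lower (Cd9 and Asb2) and 1 neither (Dtx1), beside 12.9% higher and 11.9% lower over all genes. The list includes Cr2 and Mzb1, which follicular B cells also carry. Fcrl5 had UMIs in 13.7% of B cells, the S1P receptor gene S1pr3 in 4.32%, Cd1d1, which encodes a lipid-presenting molecule, in 23.7%, against 1173 of 6893 T cells, and Myof in 11.5%. Their counts were divided by Fcer2a, of which marginal zone cells carry little. Leaving aside the 3 cells with many Jchain UMIs, Fcrl5 had UMIs in 11 of the 33 B cells without Fcer2a and in 8 of the 103 with it. Myof had UMIs in 9 of 33 and 7 of 103, and Cd9 in 5 of 33 and 2 of 103. Cd1d1 had UMIs in 13 of 33 and 19 of 103, and Marcks in 12 of 33 and 17 of 103. Tm6sf1 was in 16 of 33 and 28 of 103, and Dtx1 in 12 of 33 and 18 of 103. S1pr3 was in 4 of 33 and 2 of 103, and Asb2 in 4 of 33 and 1 of 103. Notch2, Mzb1 and Cr2 did not have this direction or hardly differed. Notch2 was in 14 of 33 and 47 of 103, Mzb1 in 23 of 33 and 67 of 103, and Cr2 in 20 of 33 and 72 of 103. Pik3r4 and Dph5 of the list were not divided in this way. Ighd was in 27 of 33 and 100 of 103. The median depth was 5056 UMIs without Fcer2a and 5397 UMIs with it. This division was made after the values were seen and was not tested. At least 2 of Fcrl5, Myof, S1pr3 and Cd9 were found together in 12 B cells.

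Several marker genes of the transitional and B-1 stages had few UMIs. Cd93, a marker gene of immature B cells, had UMIs in 5 of 139 B cells (3.60%, against 1.51% of T cells), and in 1 of 131 after thinning. Leaving aside the cells with many Jchain UMIs, Cd93 had UMIs in 1 of the 33 B cells without Fcer2a and 1 of the 103 with it. The recombination and surrogate light chain genes Rag2, Igll1 and Dntt had 0 UMIs in B cells and Rag1 had 1. Cd24a (304 and 0.928 CPM) and Vpreb3 (295 and 0.0546 CPM), which mature B cells keep at some level, were higher in B cells. Of the B-1 list, 5 genes reached 50 CPM, with 4 lower in B cells (Cd5, Ahnak, Ctla4 and Cd9) and 1 higher (Fcrl5). The shares over all genes were 11.9% lower and 12.9% higher. Cd5, a marker gene of B-1 cells, had 1 UMI, and Ctla4 had 37 UMIs in 8 of the 139 B cells. T cells carried both genes, Cd5 in 82.6% and Ctla4 in 2624 of 6893. The lower calls are thus relative to T cells and do not by themselves describe B-1 cells. In the list of memory and age-associated B cells, Apoe (126 and 2.18 CPM), Cd86, Fcrl5 and Zeb2 (66.8 and 13.2 CPM) were higher in B cells, and Nt5e and Cxcr3 lower. Itgax, Itgam and Zbtb32 had 0 UMIs in B cells, which allows up to 3.45 CPM each, and Tbx21 had 7 UMIs in 4 cells.

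A few B cells carried germinal centre genes together. None of the 11 listed genes reached 50 CPM in the sum. At least 4 of the genes Rgs13, Mef2b, Gcsam, S1pr2, Mybl1, Nuggc and Neil1 were found together in 3 cells. The first held 22701 UMIs, with 18 of Neil1, 7 of Mef2b and 39 of the proliferation gene Mki67. It had no Ighd, Fcer2a or Cr2 UMI. The second held 12069 UMIs, with 16 of Rgs13, 5 of Mef2b, 24 of Il4i1 and 8 of the IgG3 gene Ighg3. The last held 12770 UMIs, with 10 of Rgs13, 9 of Mef2b and 19 of Il4i1. The second and the last also held 374 and 393 Cd74 UMIs and 27 and 25 UMIs of the activation gene Cd83, the highest of all B cells, while the first held 252 and 0. All 3 were deeper than the median B cell of 5435 UMIs, and their part in the detection of more genes was not tested.

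Antibody genes set 3 further cells apart. They held 1927, 2242 and 1229 UMIs of Jchain, against 23 or fewer in every other B cell, in 33537, 31321 and 24546 UMIs in all. Immunoglobulin genes, Jchain included, made up 64.3%, 69.0% and 53.5% of their UMIs, against a median of 1.76% in the other 136 B cells. The first 2 held 1625 and 1376 UMIs of Ighm and no switched heavy chain. The other held 941 UMIs of Ighg2b, the IgG2b heavy chain gene, and 0 of Ighm. Each had 1 leading heavy chain V gene (Ighv14-1 with 4597 UMIs, Ighv1-26 with 4285 and Ighv5-17 with 3961) and 1 leading kappa V gene (Igkv1-133 with 12508, Igkv4-58 with 12923 and Igkv6-14 with 6239). They had 28, 40 and 60 UMIs of Xbp1, the factor gene of the secretory programme, against 4 or fewer in the others. Sdc1, the plasma cell marker gene of CD138, had 2, 4 and 7 UMIs. H2-Aa had 1, 7 and 13 UMIs, and Ighd, Fcer2a and Cr2 had 0. These cells met the rule with 8, 1 and 9 Ms4a1 UMIs. The cut at 100 Jchain UMIs was set after the values were seen.

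These 3 cells carried 89404 of the 868315 UMIs of all B cells, so sums of antibody genes rest on them. Immunoglobulin genes made up 8.15% of the UMI sum with them and 1.86% without them. Ighm stood at 4983 CPM with them and 1702 CPM without them, Igkc at 3371 and 1137 CPM, and Jchain at 6264 and 52.6 CPM. Without them, 575 genes were at least 2-fold higher in B cells and 465 lower, of which 516 and 454 were the same genes as with them. Xbp1, in the plasma cell list, was then no longer past 2-fold. Of the 7 plasma cell genes that reached 50 CPM with them, 5 were higher (Jchain, Mzb1, Xbp1, Irf4 and Creld2), 0 lower and 2 neither. Without them 3 were higher. Over all genes, 12.9% were higher and 11.9% lower with them.

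Class switching was rare. Counting 3 or more UMIs of a switched heavy chain gene, 4 of 139 B cells had one. They were the Ighg2b cell above, a cell with 5 Ighg2b UMIs beside 10 Ighm and 3 Ighd UMIs, a cell with 7 Ighg1 UMIs and neither Ighm nor Ighd, and the germinal centre gene cell with 8 Ighg3 UMIs. A further 7 cells had 1 or 2 UMIs of switched genes. Igha, the IgA gene, had 5 UMIs in 5 cells, Ighg2c 1 UMI and Ighe 0.

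The V genes of the B cells were diverse. A heavy chain V gene had UMIs in 137 of 139 B cells, and the leading gene, with the most UMIs in a cell, was 1 of 54 different genes. Its median was 15 UMIs, and 95 cells held UMIs of 1 heavy chain V gene only. The 5 most frequent leading genes were Ighv3-6 in 12 cells (8.76%, 4.61 to 14.8), Ighv1-72 in 10, Ighv1-26 in 8, and Ighv1-18 and Ighv1-55 in 6 each. Kappa V genes had UMIs in 135 cells, also with 54 different leading genes, the most frequent being Igkv1-117 in 9 and Igkv10-96 in 8. Of 136 cells with a leading heavy and light V gene, 131 different pairs were counted. Among these pairs, 5 were in more than 1 cell, with 10 cells in all, and none was in more than 2 cells. V genes are near-identical within families, so reads can be split among them, and B cell receptor sequences were not analysed here.

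Kappa dominated over lambda, as in mice generally. The leading light chain V gene was kappa in 129 B cells and lambda in 9, and 1 cell could not be decided. Lambda-led cells held 1 Igkc UMI at the median and kappa-led cells 6. The lambda constant genes Iglc2 or Iglc3, however, had UMIs in 128 of the 129 kappa-led cells, and a lambda V gene in 47 of them. Iglc2 and Iglc3 are near-identical copies, and their counts are uncertain. In T cells, Iglc2 and Iglc3 had 9 and 4 UMIs in all.

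Some genes of the activation list were higher in B cells than in T cells, a comparison that does not tell activated from resting B cells. Of 18 activation genes, 10 reached 50 CPM, and 5 of these were higher, 1 lower and 4 neither. The background over all genes was 12.9% higher and 11.9% lower. Higher were Cd83 (250 and 11.2 CPM), the costimulatory ligand genes Icosl (144 and 5.86 CPM) and Cd86 (105 and 10.7 CPM), Cd40, the receptor gene for T cell help (100 and 0.182 CPM), and Il4i1, an amino acid oxidase gene (137 and 0.600 CPM). Cd83 was spread over 54.0% of B cells and Icosl over 52.5%, and Il4i1 over 28.1% with up to 24 UMIs in a cell. Cd69 (127 and 149 CPM) and the immediate-early gene Egr1 (56.4 and 43.5 CPM) were neither. Ccnd2, a cyclin gene, was lower (53.0 and 392 CPM).

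Survival, sensing, homing and cytokine genes came from short lists, to be read beside 12.9% of all genes higher and 11.9% lower. Of 8 survival receptor genes that reached 50 CPM, Tnfrsf13c, Tnfrsf13b (215 and 25.6 CPM) and Cd40 were higher, and 5 were neither, among them Mcl1 (426 and 282 CPM) and Bcl2 (212 and 216 CPM), with a median log2 ratio of 0.58. All 4 innate sensing genes that reached 50 CPM were higher: Cd180 (196 and 0.0364 CPM) and its partner Ly86 (442 and 0.0910 CPM), Tlr1 (57.6 and 24.9 CPM), and Unc93b1, which carries nucleic acid sensing Toll-like receptors to endosomes (518 and 16.4 CPM). Of 12 homing genes, 3 were higher (Cxcr5, Cxcr4 and Ccr6), 3 lower (Itgb7, Itgal and Cxcr3) and 6 neither, and the median log2 ratio was -0.40. Among cytokine genes, Ltb, which encodes the lymphotoxin that organizes follicles, was at the same level within its interval (850 and 844 CPM, ratio 1.01, 0.935 to 1.08). Il10 had 2 UMIs in 1 B cell and Il6 had 0. Il12a had UMIs in 31 of 139 B cells (22.3%) and 2 of 6893 T cells.

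Interferon, division and stress genes are given beside a background of 12.9% of all genes higher and 11.9% lower, and too few were compared to set them apart from it. Of 15 interferon response genes 6 reached 50 CPM, with 0 higher, 3 lower (Ifi27l2a, Zbp1 and Isg15) and 3 neither. Isg15 stood at 17.3 CPM in B cells and 101 CPM in T cells, while Ifi27l2a, at 417 and 871 CPM, and Zbp1, at 46.1 and 96.8 CPM, were neither when immunoglobulin genes were left out of the total. Of 12 cell cycle genes 3 reached 50 CPM and all 3 were neither. Mki67 had UMIs in 5.04% of B cells and 8.05% of T cells, and 39 of its 50 UMIs in B cells came from the first germinal centre gene cell. Of 13 stress genes, Zfp36 was higher (356 and 147 CPM), 0 were lower and 12 were neither, including Fos and Jun.

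Of the sort markers, Cd4 was nearly absent from the RNA of these cells, and Cd44 was not. Cd4 had 1 UMI in 139 B cells, against UMIs in 84.5% of T cells. Cd44 stood at 57.6 CPM in B cells and 128 CPM in T cells and had UMIs in 26.6% of B cells and 49.9% of T cells. Tnfrsf18, which encodes GITR, the marker selected against, stood at 25.3 and 145 CPM. Cd8a had 0 UMIs in B cells. Myeloid genes were sparse, with 11 of 18 listed genes at 0 UMIs in B cells, among them Lyz2, Csf1r, Itgax and Siglech. Cst3 (275 and 93.7 CPM) was higher. Of 11 NK, CD8 and gamma-delta T cell genes, 8 had 0 UMIs in B cells.

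The T-B barcodes held more RNA. Their UMIs ran from 8338 to 35681 with a median of 13204 (95% interval from the ordered values 11573 to 18932), against 5435 in B cells and 7449 in T cells. The median was 2.43 times that of B cells and 1.77 times that of T cells, and the sum of the B cell and T cell medians was 12884. All 10 lay above the 90th percentile of B cells (8243 UMIs), and 1 lay above every B cell. Each had exactly 1 productive TRB and at least 1 productive alpha chain.

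**Figure D4:**
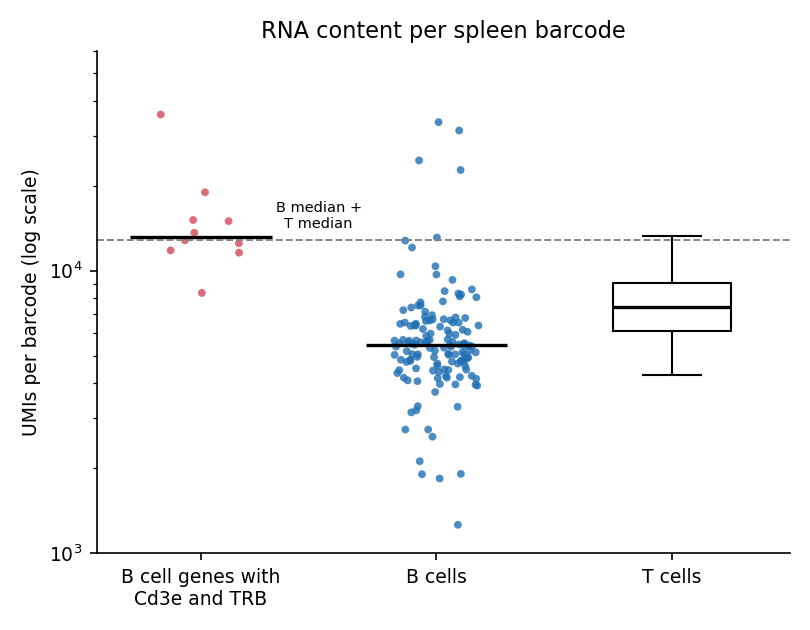
UMIs per barcode on a log scale in the 10 T-B barcodes, the 139 B cells and the T cells; points are barcodes, horizontal bars are medians, and the box gives the quartiles of T cells with whiskers at the 5th and 95th percentiles. The median of the T-B barcodes, 13204, lies beside the dashed line at 12884, the sum of the B cell and T cell medians.

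B cell and T cell genes were both present. Without Cd79a, which the rule used, 17 receptor complex genes summed to 63.1 UMIs per T-B barcode (58.3 to 68.2), 68.2 per B cell (66.8 to 69.6) and 3.43 per T cell. The 13 class II genes summed to 228 UMIs per T-B barcode (219 to 238), 241 per B cell (238 to 243) and 2.55 per T cell. Without Cd3e, 19 T cell identity genes summed to 84.4 UMIs per T-B barcode (78.8 to 90.3), 75.1 per T cell (74.9 to 75.3) and 2.45 per B cell. Ighd had UMIs in all 10, and Fcer2a in 8.

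Among the receptors of the 10 T-B barcodes, 4 carried TRAV11 joined to TRAJ18 (40.0%, 12.2 to 73.8), the invariant alpha chain of natural killer T cells, against 648 of 6893 T cells (9.40%, 8.72 to 10.1). The CDR3 sequences are shown because the beta chain tells whether barcodes share a T cell clone. They are given 5′ to 3′ as the receptor library has them, from the alpha locus on mouse chromosome 14 and the beta locus on chromosome 6. Capitals mark the 1 base at which the 2 alpha forms differ.
TRAV11-TRAJ18 of T-B barcodes 4, 8 and 9: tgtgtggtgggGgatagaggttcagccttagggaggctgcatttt
TRAV11-TRAJ18 of T-B barcode 1: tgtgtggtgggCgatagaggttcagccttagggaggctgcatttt
TRBJ1-2 of T-B barcode 1: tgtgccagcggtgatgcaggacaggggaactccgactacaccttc
TRBJ2-5 of T-B barcode 4: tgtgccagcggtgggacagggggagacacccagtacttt
TRBJ2-5 of T-B barcode 8: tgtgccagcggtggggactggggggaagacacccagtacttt
TRBJ1-2 of T-B barcode 9: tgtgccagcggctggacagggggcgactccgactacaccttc
The first alpha form was in 199 spleen barcodes and the second in 264, of 712 with TRAV11-TRAJ18. The 4 beta chains, all called TRBV12-2+TRBV13-2, differ from each other, and each was in 1 spleen barcode only. The 4 barcodes thus share an alpha chain type with many other barcodes and no beta chain with each other.

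Of the other 6 T-B barcodes, 2 had an alpha and a beta chain that were each found in several other spleen barcodes. Their sequences are shown because brain barcodes carried them as well.
TRAV7-4-TRAJ23 of T-B barcode 2: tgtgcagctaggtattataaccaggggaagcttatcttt
TRBJ1-4 of T-B barcode 2: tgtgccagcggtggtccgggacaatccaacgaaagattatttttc
TRAV14D-3-DV8-TRAJ4 of T-B barcode 7: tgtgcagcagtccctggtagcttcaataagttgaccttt
TRBV20-TRBJ2-4 of T-B barcode 7: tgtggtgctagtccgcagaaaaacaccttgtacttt
The beta chain of barcode 2 was in 10 spleen and 3 brain barcodes and its alpha chain in 13 and 5. Each chain of barcode 7 was in 10 spleen and 3 brain barcodes. Chains were counted singly, with the T-B barcode included, and barcodes that share both chains were not counted. Barcodes 3, 5 and 6 had receptors seen once in spleen and not in brain, and barcode 10 had a beta chain in 2 spleen barcodes and 0 brain barcodes and 2 alpha chains that were each in 1 brain barcode.

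The T cell side was described by genes of helper types. Cxcr3, a chemokine receptor gene of type 1 cells, had UMIs in 9 of 10 T-B barcodes and 35.7% of T cells, at 6.4 UMIs per barcode (4.93 to 8.17) and 1.42 per T cell. Tbx21, the factor gene of type 1 cells, had UMIs in 7 of 10 and 16.3%, and the monocyte and effector T cell receptor gene Ccr2 in 7 of 10 and 16.0%. Cxcr3, Tbx21 and Ccr2 were 4.50, 5.57 and 5.32 times as high per T-B barcode as per T cell. In the 6 T-B barcodes without TRAV11-TRAJ18 they were 5.36, 7.92 and 8.77 times as high as in the 6245 T cells without it, and in the 4 with it 1.75, 1.40 and 1.01 times as high as in the 648 T cells with it. In B cells Cxcr3, Tbx21 and Ccr2 had 5, 7 and 3 UMIs in all. Among the 6 T-B barcodes without TRAV11-TRAJ18 they had UMIs in 5, 3 and 4. Of the Cxcr3 UMIs of these 6, 22 of 38 were in barcode 5. For Tbx21, 6 of 10 were in barcode 10, and for Ccr2, 9 of 20 were in barcode 6. Ccl5 and Nkg7 were 2.09 and 3.46 times as high over all 10, and 1.47 and 2.26 times without barcode 8, which held 29 and 26 of their UMIs. Set against T cells of the same receptor kind, they were 0.662 and 2.60 times as high in the 6 barcodes without TRAV11-TRAJ18, and 1.08 and 1.37 times in the 4 with it. In all, 69 of 79 Ccl5 UMIs and 45 of 63 Nkg7 UMIs were in the 4 with TRAV11-TRAJ18. Barcode 4, also with the invariant chain, held 0 of Nkg7. Those 4 also held all 10 Klrb1c UMIs and no Cd4 UMI, whereas each of the other 6 had Cd4 UMIs. Cd4 had UMIs in 385 of 648 T cells with the invariant chain and 5441 of 6245 others.

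Follicular helper genes were mixed in the T-B barcodes. Of 14 listed genes, the mean of T cells lay within the counting interval of the T-B mean for 9, below it for 3 (Tox2, Il4 and Cxcr5) and above it for 2 (Tox and Izumo1r). Pdcd1 had UMIs in 2 of 10 T-B barcodes and 15.8% of T cells, Icos in 5 of 10 and 52.2%, and Sh2d1a in 8 of 10 and 59.7%. Tox2 had 0.8 UMIs per T-B barcode (0.345 to 1.58) and 0.179 per T cell, with its T-B UMIs in 1 barcode. Il4 had 0.5 (0.162 to 1.17) and 0.101. All 5 T-B UMIs of Il4 were in the 4 barcodes with TRAV11-TRAJ18, at 1.25 per barcode (0.406 to 2.92). T cells with that chain held 0.690 Il4 UMIs per cell and T cells without it 0.0404. Foxp3, the regulatory T cell factor gene, had UMIs in 0 of 10 and 11.6% of T cells; with 10 barcodes and a low gene this sets no useful limit. Cxcr5 had UMIs in 6 of 10, but B cells carry it in 60.4%, so it does not describe the T cell side. Slamf6, Bcl6 and Cd200, which are among the 9, also had 1.09, 0.281 and 0.266 UMIs per B cell. Their T-B values can therefore hold a B cell part.

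**Figure D5:**
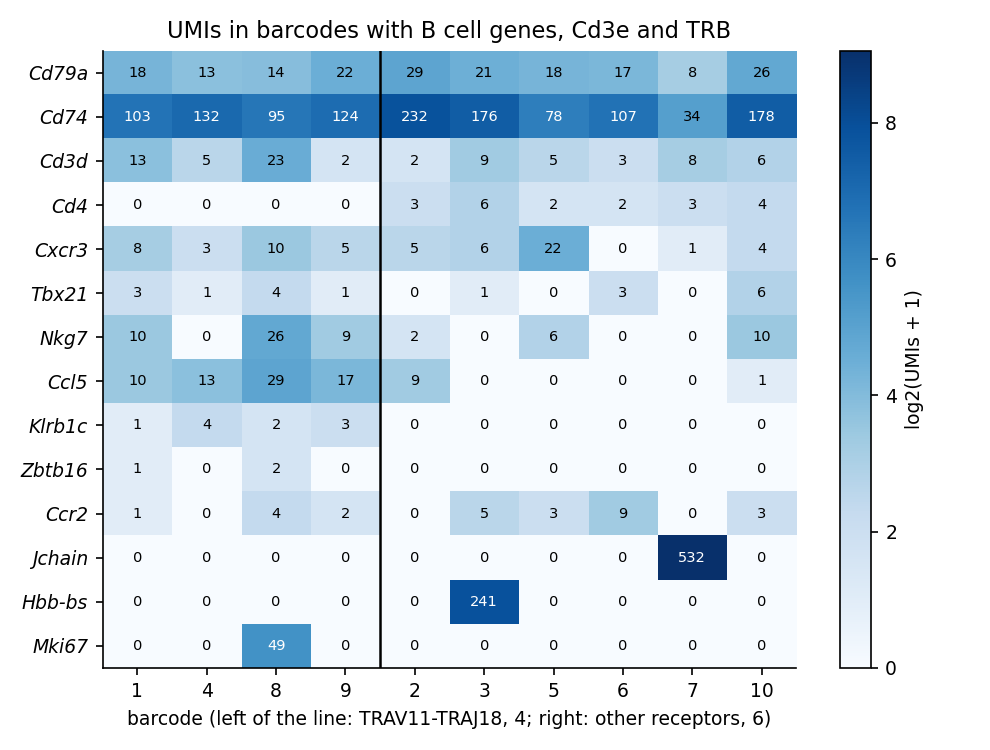
UMIs of marker genes in each of the 10 T-B barcodes, shaded by log2(UMIs + 1); barcodes left of the line carry TRAV11-TRAJ18 and those on the right other receptors. Klrb1c is on the left only, Cd4 on the right only, and barcodes 7, 3 and 8 alone hold Jchain (532 UMIs), Hbb-bs (241) and Mki67 (49).

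Single T-B barcodes stood apart by 1 or more genes. Barcode 7 held 532 Jchain and 653 Ighm UMIs and 0 of H2-Aa and Fcer2a. Barcode 3 held 241 UMIs of the haemoglobin gene Hbb-bs beside 21 Cd79a and 7 Cd3e UMIs, whereas Hbb-bs had 2 UMIs in all 139 B cells. Barcode 8 held 35681 UMIs, 24 Cd3e UMIs and 49 Mki67 UMIs with 14 Cd79a UMIs. The other 7 held 13 to 29 Cd79a UMIs, 78 to 232 Cd74 UMIs and 2 to 9 Fcer2a UMIs. Cells that were attached and cells that met by chance in a droplet cannot be told apart from these values. The 2 barcodes with 1 Cd3e UMI and no TRB had 4352 and 5904 UMIs, within the range of B cells, and the barcode with a TRB and no Cd3e had 3328 UMIs and 6.04% mitochondrial UMIs.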

How the data were processed

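The deposited files hold UMI counts per gene and barcode, whole numbers that the authors made with Cell Ranger 9.0.0 per the submitters' processing notes, and receptor contigs with read and UMI counts. Only productive contigs were used. The notes list genome builds but not how each was used, and positions are not printed. The sequencing chemistry, per the labels' protocols, reads the 5′ end of transcripts. From the counts, cells were chosen by the rule above with no clustering and no doublet caller, since Cd3e and TRB separate T-B barcodes; B cell pairs in 1 barcode are not removed. UMIs were summed per group and scaled to CPM. Genes reaching 50 CPM in the higher group were compared, and a ratio (fold) of 2 or more was called higher and of 0.5 or less lower. Ratios have exact conditional binomial, shares exact (Clopper-Pearson) and sums exact Poisson 95% intervals, for counting error only. A count of 0 allows 3 counts. There was no statistical test, as each tissue has 1 library. The calculation was tested on simulated data. Named genes were the 12 highest and 12 lowest ratios, ranked by the interval bound nearest 1, among genes of at least 100 CPM leaving out T cell receptor, immunoglobulin, sex-linked, ribosomal, mitochondrial and haemoglobin genes, unnamed models and the genes of the rule, plus up to 6 members of each list by CPM in B cells. Further genes were picked with their values known. The members and lists were chosen with earlier results of these data known. Of all listed symbols 1 (Vpreb1) matched no feature. Python 3.11.15, numpy 2.4.6, scipy 1.17.1 and pandas 2.3.3 were used. Alternatives were other thresholds of the rule, CPM minimums, folds, scalings and leaving out single kinds of barcodes. Some genes of the lists and 1 of the 12 highest ratios are not reported here. Sums and counts without the genes of the rule, and ratios against T cells of the same receptor kind, were added after seeing the data.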

Additional observations from a re-analysis of the deposited data

Results flagged for a closer look

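Signals of B cells appeared in barcodes that the comparisons did not use. In the brain library, 4 of 4143 filtered barcodes met the same rule (0.0965%, 95% interval 0.0263 to 0.247), against 152 of 8474 in spleen (1.79%, 1.52 to 2.10). Of the 4, 1 had neither Cd3e nor a TRB and held 5181 UMIs, with 19 Cd79a, 112 Cd74 and 5 Fcer2a UMIs, and 3 had both, with 12595, 13062 and 19898 UMIs. The deepest of these held 5 Cd79a and 36 Cd74 UMIs and 0 of Ighm, Ighd and Igkc. In spleen, 1 barcode outside the rule held 1714 Jchain UMIs. It had 52090 UMIs in all, 32 of Cd79a, 2342 of Ighm, 942 of Igkc, 0 of Ms4a1 and Cd3e and no TRB, beside the 3 B cells with 1229 to 2242 Jchain UMIs.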

How the results depend on the processing

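No paired analysis was possible because each tissue has 1 library. Of 64 alternative values for the main counts, shares and ratios, 56 stayed within 1.5 times or within the counting interval. With Ms4a1 not required, the T-B barcodes were 17 in place of 10. With a minimum of 100 CPM, 345 genes were higher and 272 lower in B cells, and with 20 CPM 885 were lower. At a fold of 1.5, chosen after seeing the data, 907 were lower, and at a fold of 3, 309. Thinned to 3000 UMIs, Ighd was in 83.2% and Fcer2a in 62.6% of B cells. B cells numbered 129 to 142 over the thresholds. The ratio of median UMIs of T-B barcodes to B cells was 2.37 to 2.43. For Ccl5 the ratio of T-B barcodes to T cells turned to 0.440 without the TRAV11-TRAJ18 barcodes. Of 167 alternative values for the named genes, 21 left the counting interval and 0 changed direction. Without immunoglobulin genes in the total, the median log2 ratio of all genes moved to -0.02. The causes were not tested. Depth limits the detection of low genes in B cells: a count of 0 allows 3.45 CPM. With 10 T-B barcodes, shares among them carry wide intervals.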
